A study of Mus musculus with 13 samples.

Results

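The Tfap2 family, Tfap2a to Tfap2e, encodes the AP-2 transcription factors of the mouse, and the open chromatin around these 5 genes was measured by ATAC-seq in the forelimb and forebrain of E12.5 embryos. A region belongs to the family when its strongest summit lies within 100 kb of the body of one of the genes in GENCODE M21 (mm10, the same assembly as GRCm38). Over 13 libraries 613 of 1360329 called regions met this rule, in 612 distinct intervals, and a single library held between 27 (542 PFL, replicate 2) and 68 (Bolt2021, an older DFL library described below that entered no test). Among the 12 libraries compared the highest number was 57, in wt FB replicate 1 and 542 FB replicate 1. Regions of libraries that overlapped were merged, which gave 115 merged regions around the family from all deposited calls. The 50000 strongest regions of each library gave 44, of which 34 were among the 50000 strongest of at least 2 libraries and were tested. The other 10 were that strong in 1 library only. Of the 34, 7 lay around Tfap2a, 7 around Tfap2b, 8 around Tfap2c, 4 around Tfap2d and 8 around Tfap2e.

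The 12 libraries compared fall into 6 groups of 2. Wild-type (wt) embryos and embryos homozygous for the II1TDOM 542 allele (542), both of strain B6CBAF1, gave 3 tissues, the distal part of the forelimb (DFL), its proximal part (PFL) and the forebrain (FB), with 50000 cells per library and cells pooled from several embryos. The 542 allele carries the II1 limb enhancer with a LacZ reporter inserted on chromosome 2 in a regulatory domain of the HoxD cluster. The wt embryos carry no insertion. An older wt DFL library, named Bolt2021, entered no test and is quoted where named.

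AP-2 proteins bind DNA as dimers at GC-rich palindromes close to GCCNNNGGC. Tfap2a, Tfap2b and Tfap2c are known for roles in surface ectoderm and neural crest, with Tfap2a and Tfap2b also linked to the limb bud and face. Tfap2d is known from the developing midbrain and Tfap2e from the olfactory system. ATAC-seq marks open chromatin, such as active promoters and enhancers, and measures no transcript. A call near a gene does not tie that region to the gene, and in bulk tissue fewer cells with an open site and less opening per cell cannot be told apart.

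The 12 libraries held 85067 to 118297 regions from an estimated 37.5 M to 70.7 M tags (M, mega). The tissue labels were checked with regions within 100 kb of marker genes, summed over a list. Sums over 6 distal limb genes (Hoxa13, Hoxd13, Msx1, Msx2, Sall3 and Evx2) were 59 to 69 in DFL, 45 to 50 in PFL and 22 to 31 in FB. Sums over 8 forebrain genes were 75 to 87 in FB and 45 to 58 in the limb. Sums over 5 proximal limb genes were 57 to 60 in DFL, 50 to 63 in PFL and 69 to 77 in FB, so these genes did not set the PFL libraries apart. Sums over 9 surface ectoderm genes were 64 to 70 in DFL, 58 to 65 in PFL and 56 to 64 in FB. Sums over 4 muscle genes were 13 to 17 in DFL, 21 to 26 in PFL and 22 to 26 in FB. The proximal limb and muscle sums thus did not follow the tissue or cell type of their list.

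The sequences below are 300 bases of the forward strand of GRCm38 centred on the summit of 9 regions. These are the regions found among the strongest in every library of 1 tissue or of a pair of tissues and in no other, leaving out those that reach into a UTR. Each is named by the distance of its summit from the gene's 5′ end and by the tissue in which it was found. They are shown so that regions of the same gene with opposite tissue patterns can be read side by side. Capitals mark the AP-2 word GCCNNNGGC and the homeodomain word TAATTA, and a sequence with no capitals holds neither.
Tfap2a 37.8 kb downstream (DFL), chr13:40700378-40700677: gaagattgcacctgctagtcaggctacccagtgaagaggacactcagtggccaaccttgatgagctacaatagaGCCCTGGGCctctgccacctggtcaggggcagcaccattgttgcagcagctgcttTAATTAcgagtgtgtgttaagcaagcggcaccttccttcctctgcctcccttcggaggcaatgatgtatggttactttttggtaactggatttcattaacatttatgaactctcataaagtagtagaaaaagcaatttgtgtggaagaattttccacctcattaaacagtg
Tfap2a 92.0 kb downstream (DFL), chr13:40646223-40646522: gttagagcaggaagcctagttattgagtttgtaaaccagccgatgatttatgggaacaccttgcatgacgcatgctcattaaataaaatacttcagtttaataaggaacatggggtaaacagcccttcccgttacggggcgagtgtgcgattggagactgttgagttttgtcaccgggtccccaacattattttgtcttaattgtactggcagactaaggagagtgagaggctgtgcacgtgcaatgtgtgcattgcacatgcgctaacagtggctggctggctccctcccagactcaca
Tfap2a 29.2 kb downstream (FB), chr13:40708991-40709290: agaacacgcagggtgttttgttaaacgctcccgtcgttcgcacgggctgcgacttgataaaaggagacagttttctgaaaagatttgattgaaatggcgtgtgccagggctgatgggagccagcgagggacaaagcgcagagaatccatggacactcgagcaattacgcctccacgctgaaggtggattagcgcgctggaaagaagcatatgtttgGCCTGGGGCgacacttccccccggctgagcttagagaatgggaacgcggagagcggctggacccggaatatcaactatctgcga
Tfap2b 8.6 kb downstream (DFL and FB), chr1:19217341-19217640: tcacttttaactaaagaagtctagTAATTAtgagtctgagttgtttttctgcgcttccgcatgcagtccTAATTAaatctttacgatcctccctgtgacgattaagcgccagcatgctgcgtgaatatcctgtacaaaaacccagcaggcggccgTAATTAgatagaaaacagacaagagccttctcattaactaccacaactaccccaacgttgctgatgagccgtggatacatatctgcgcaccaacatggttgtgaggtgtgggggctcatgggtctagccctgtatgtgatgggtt
Tfap2b 36.4 kb downstream (FB), chr1:19245154-19245453: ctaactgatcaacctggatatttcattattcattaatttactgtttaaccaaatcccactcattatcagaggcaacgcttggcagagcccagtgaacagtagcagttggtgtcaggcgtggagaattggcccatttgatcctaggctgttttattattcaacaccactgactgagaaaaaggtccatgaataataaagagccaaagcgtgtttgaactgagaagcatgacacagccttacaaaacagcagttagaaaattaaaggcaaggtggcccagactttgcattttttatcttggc
Tfap2c 64.5 kb upstream (DFL), chr2:172484964-172485263: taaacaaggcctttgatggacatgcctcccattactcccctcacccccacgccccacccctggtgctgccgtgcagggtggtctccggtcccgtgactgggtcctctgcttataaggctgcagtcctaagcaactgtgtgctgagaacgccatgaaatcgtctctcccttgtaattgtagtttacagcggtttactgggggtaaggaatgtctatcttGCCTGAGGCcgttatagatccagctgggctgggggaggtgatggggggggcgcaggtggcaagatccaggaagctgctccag
Tfap2c 56.2 kb downstream (PFL), chr2:172605681-172605980: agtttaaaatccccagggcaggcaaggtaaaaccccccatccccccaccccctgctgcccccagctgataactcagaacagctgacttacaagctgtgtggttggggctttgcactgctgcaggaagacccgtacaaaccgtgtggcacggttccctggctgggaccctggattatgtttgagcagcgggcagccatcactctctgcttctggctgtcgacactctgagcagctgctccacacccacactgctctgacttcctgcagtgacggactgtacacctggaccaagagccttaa
Tfap2e 80.7 kb downstream (DFL and PFL), chr4:126655368-126655667: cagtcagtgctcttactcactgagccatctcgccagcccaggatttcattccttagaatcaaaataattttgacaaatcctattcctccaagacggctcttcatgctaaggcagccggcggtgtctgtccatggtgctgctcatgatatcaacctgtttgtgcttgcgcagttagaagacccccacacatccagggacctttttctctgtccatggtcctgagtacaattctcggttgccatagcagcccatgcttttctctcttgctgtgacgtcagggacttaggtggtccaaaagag
Tfap2e 87.7 kb downstream (FB), chr4:126648407-126648706: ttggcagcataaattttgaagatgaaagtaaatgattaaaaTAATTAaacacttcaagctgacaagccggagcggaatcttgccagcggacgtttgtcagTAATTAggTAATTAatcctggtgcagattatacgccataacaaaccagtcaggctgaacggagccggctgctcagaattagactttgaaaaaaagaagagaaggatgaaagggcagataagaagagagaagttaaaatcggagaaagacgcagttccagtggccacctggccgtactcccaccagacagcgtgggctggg

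The question of whether the family's surroundings are more open in one tissue was first asked by counting regions among the 50000 strongest of each library. Around Tfap2a, the wt DFL libraries held 5 and 5 regions, the 542 DFL libraries 5 and 5, the wt PFL libraries 3 and 2, and the 542 PFL libraries 3 and 2. All DFL libraries were above all PFL libraries. The FB libraries held 3 and 2 in wt and 4 and 5 in 542, across the range of both limb parts. The mean was 5.00 in DFL against 2.50 ± 0.577 in PFL (SD, n = 4), a log2 difference of 0.79 ± 0.15 (SE, log2 of the count plus 1; limma, adjusted p = 0.0274).

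Around Tfap2b, which is essential in kidney and ductus arteriosus, DFL libraries held 9 and 8 regions in wt and 8 and 8 in 542. PFL libraries held 4 and 4 in wt and 3 and 5 in 542, again without overlap. FB lay between, with 6 and 5 in wt and 6 and 8 in 542. The log2 difference between DFL and PFL was 0.90 ± 0.14 (limma, adjusted p = 0.0168). Tfap2d lies next to Tfap2b on chromosome 1, and their windows overlap, so that a region can count for both. Around Tfap2d, DFL libraries held 10, 7, 9 and 8 regions and PFL libraries 5, 4, 3 and 4, with FB at 6, 5, 6 and 8. This difference was 0.93 ± 0.15 (limma, adjusted p = 0.0169) and is for the most part the Tfap2b regions counted again. The 4 tested regions nearest to Tfap2d were listed in 2, 3, 4 and 4 DFL libraries and in 1, 2, 4 and 4 PFL libraries. By fold, 0 of these 4 differed between DFL and PFL at the threshold.

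Around Tfap2c, a gene of trophoblast, germ cells and epidermis, DFL libraries held 2, 5, 3 and 4 regions, PFL libraries 2 in each, and FB libraries 4, 3, 6 and 5. DFL and PFL overlapped and their difference did not pass (0.54 ± 0.21, limma, adjusted p = 0.171). FB minus the mean of the limb groups was 0.57 ± 0.18 (limma, adjusted p = 0.0399), but FB and DFL libraries overlapped and the exact permutation test over libraries gave p = 0.0505. The call held in the fits without wt DFL replicate 1 or 2 and was lost in the other 10 of 12 that left out a library (limma, adjusted p of 0.0524 to 0.137). Around Tfap2e, DFL libraries held 6, 5, 4 and 4 regions, PFL libraries 5, 4, 5 and 5 and FB libraries 7, 4, 6 and 8, which overlapped in every pair of tissues. The DFL minus PFL difference there was −0.01 ± 0.16 (limma, adjusted p = 1).

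Of the 5 genes, 3 held more regions in DFL than in PFL and none fewer, where 3.21% of 19546 protein-coding genes were called higher and 3.31% lower. The 3 are not separate results, because Tfap2b and Tfap2d share most of the regions counted. The exact two-sided permutation test of 4 DFL against 4 PFL libraries gave p = 0.0286 for each of Tfap2a, Tfap2b and Tfap2d, the smallest p that design allows. For FB against limb, 1 of 5 was higher and none lower, where 22.5% and 19.9% of all genes were called. With every deposited region counted in place of the 50000 strongest, none of the 5 differed between DFL and PFL at the threshold (adjusted p = 0.0917 for Tfap2a, 0.0553 for Tfap2b and 0.0512 for Tfap2d). With windows of 50 kb the call held for Tfap2b alone, the difference being 0.45 for Tfap2a (limma, adjusted p = 0.16) and 0.52 for Tfap2d (0.202). With regions at a −log10 q of at least 10 the Tfap2a call was lost (0.74, limma, adjusted p = 0.0928). Without 542 DFL replicate 1 the call held for Tfap2b alone. When single libraries were left out, the Tfap2a call was lost in 6 of 12 fits (any DFL library, 542 PFL replicate 2 or wt PFL replicate 2, adjusted p of 0.0602 to 0.073), the Tfap2b call without wt DFL replicate 1 (0.0525) and the Tfap2d call without 542 DFL replicate 1 (0.0505), each with the difference in the same direction. Counts did not differ at the threshold between 542 and wt for any of the 5, where 0.384% of all genes were called higher and 0.287% lower.

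**Figure D1:**
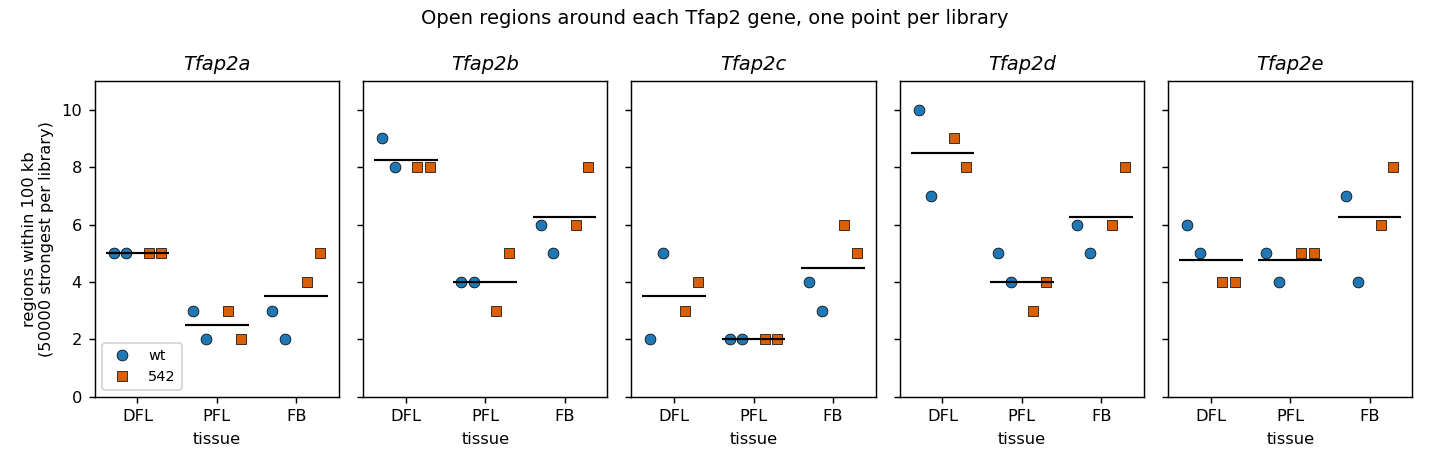
Number of regions within 100 kb of each Tfap2 gene among the 50000 strongest of each library (vertical axis) by tissue (horizontal axis). Circles are wt and squares 542 libraries, and black lines are the means of 4 libraries. For Tfap2a, Tfap2b and Tfap2d all DFL points lie above all PFL points, and for Tfap2e the 3 tissues overlap.

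The transcription starts were then examined, taking the strongest region that reached within 500 bp of a start. Only starts of transcripts annotated as protein-coding were taken, and other annotated starts of these genes were not examined. Fold here is the authors' value for a summit, the tags under it plus 1 over the local background plus 1 in the same library. Tfap2c was open at the starts examined in every library. At its 5′ start (position 172549593 of chromosome 2), folds were 3.44, 3.59, 3.31 and 3.96 over the DFL libraries (wt replicates 1 and 2, then 542 replicates 1 and 2, an order kept from here on), 3.80, 3.32, 3.03 and 3.26 over the PFL libraries and 3.08, 4.32, 5.65 and 4.94 over the FB libraries. The start of Tfap2a at position 40730443 of chromosome 13 was also called in all 12 libraries, with folds of 3.42 to 5.34, and the one at 40733823 in 11, the exception being 542 PFL replicate 2, the library with the fewest regions.

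Not every start of Tfap2a had a call. Its 5′-most start at 40738376, from which its distances are given here, and the one at 40734920 were called in 0 of 12 libraries, and the one at 40728944 in 1 FB library. Of the Tfap2b starts examined, none was called in all libraries. Its 5′ start at position 19208914 of chromosome 1 was called in 1 FB library only, and the inner start at 19212054 in 4 of 4 DFL, 0 of 4 PFL and 1 of 4 FB libraries. The folds at the inner start were low, 2.23, 2.85, 2.57 and 2.28 in DFL, with 27 to 32 tags under the summit, and 2.33 in 542 FB replicate 1. None of these calls was among the 50000 strongest of its library, so this start is weak wherever it was seen. The Bolt2021 DFL library had a fold of 2.60 at it. The start examined for Tfap2d was called in 0 of 12 libraries. The Tfap2e start was called in 7, of which 2 were DFL, 2 PFL and 3 FB, with folds of 3.61 to 5.08. All 4 of the limb calls at Tfap2e were in wt libraries, which held more regions than the 542 libraries of the same tissue.

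**Figure D2:**
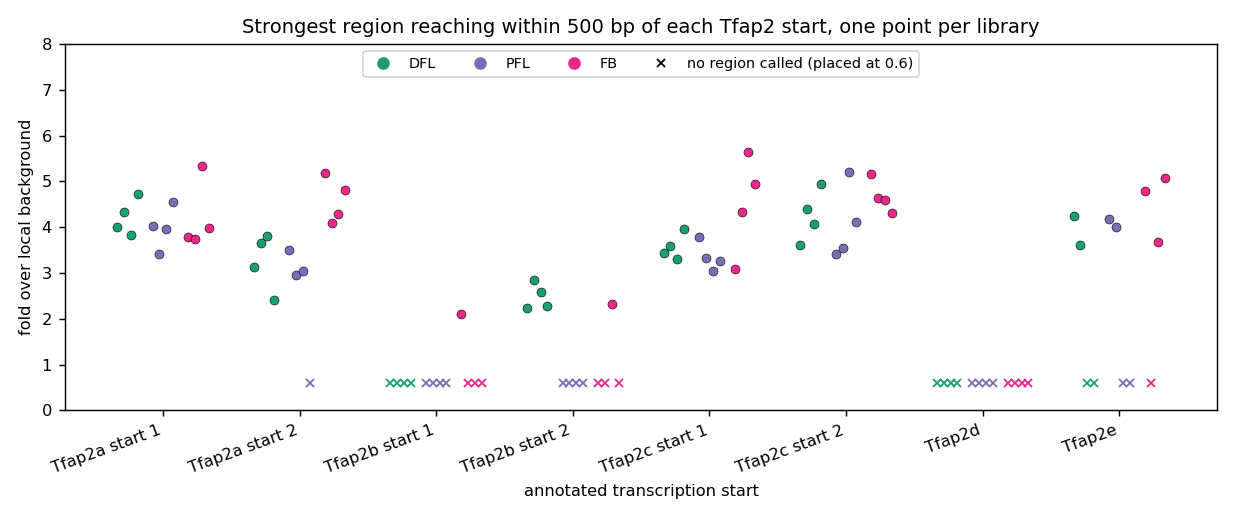
Fold over local background (vertical axis, linear) of the strongest region reaching within 500 bp of 8 starts of protein-coding transcripts (horizontal axis), 1 point per library coloured by tissue. Crosses at 0.6 are libraries with no call, not measured values. Start 1 and start 2 are positions 40730443 and 40733823 for Tfap2a, 19208914 and 19212054 for Tfap2b, and 172549593 and 172550782 for Tfap2c. Tfap2c start 1 was called in all 12 libraries and the Tfap2d start in none.

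Most regions lay away from the starts. Of the 34 tested regions, 28 lay more than 1 kb from any protein-coding start and 24 had an intergenic summit. Listed among the 50000 strongest in all 12 libraries were 5 regions, where this holds for 22% of 87902 merged regions. Another 4 were listed in all 4 DFL libraries and no other (2.43% of all), 4 in the FB libraries alone (11.1%), 1 in the PFL libraries alone (2.28%), 1 in all 8 limb libraries alone (6.07%) and 1 in DFL and FB alone (0.496%). The remaining 18 had mixed listings, so that 11 of 34 were confined to a tissue or a pair of tissues by listing. By fold, 7 regions were higher in DFL than in PFL and 1 lower (limma, adjusted p under 0.05), with 13.6% and 13.1% of all regions called. In FB against limb 8 were higher and 10 lower, with 29.9% and 42.8% of all called. These counts describe regions that passed a filter on strength and are not read as a difference of the family from other genes. In the fit, a library with no call was set at its own lowest fold (1.37 to 1.64). The true fold at such a site may lie above or below that value, so sizes may be overstated or understated. Where a whole tissue lacks the call, p-values are too small.

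**Figure D3:**
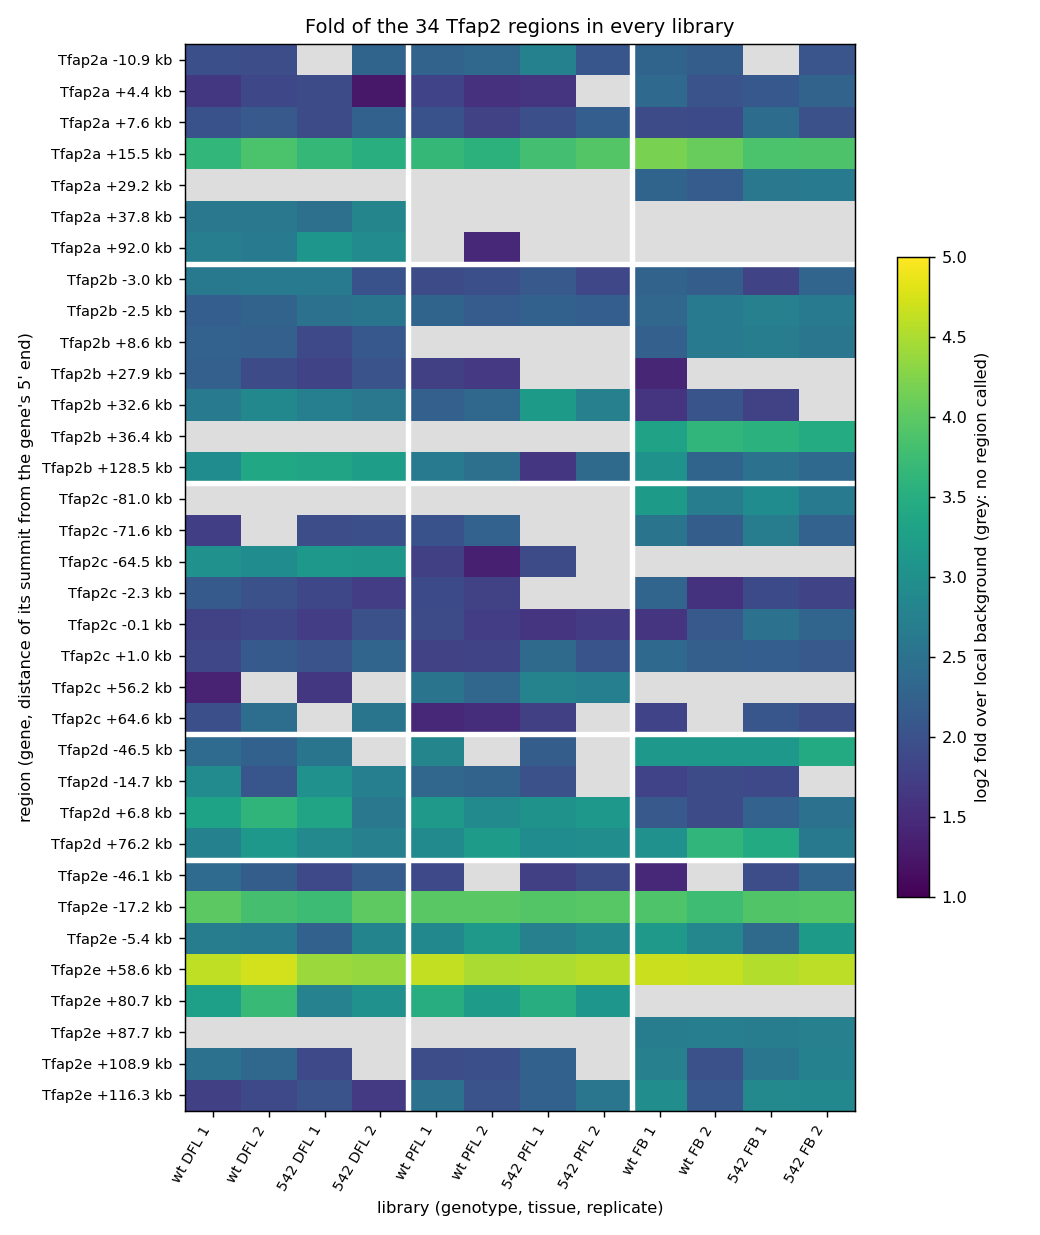
Log2 fold (colour) of the 34 Tfap2 regions (rows, named by gene and distance of the summit from the gene's 5′ end in kb) in 12 libraries (columns), with grey where no region was called. The rows at +29.2 kb of Tfap2a, +36.4 kb of Tfap2b, −81.0 kb of Tfap2c and +87.7 kb of Tfap2e are coloured in the FB columns alone. The row at +80.7 kb of Tfap2e is coloured in the 8 limb columns alone.

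Tfap2a is required for closure of the head and for face and limb development. Its strongest region was a constant one, in an intron 15.5 kb from the 5′ end (chr13:40722545-40723524), over the start of the non-coding gene Gm47061. Folds were 12.55, 14.6, 12.7 and 11.5 over the DFL libraries, 12.7, 11.8, 14.0 and 15.3 over the PFL libraries and 18.4, 16.8, 14.6 and 14.8 over the FB libraries. DFL and PFL overlapped, FB libraries were at the upper end, and no contrast passed the test (FB minus limb 0.12, limma, adjusted p = 0.123). Without the centring of libraries, FB minus limb passed (0.29, limma, adjusted p = 0.00154).

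Downstream of Tfap2a the regions switched with tissue. The region 37.8 kb from the 5′ end (chr13:40700259-40701002, intergenic), whose sequence above holds both an AP-2 and a homeodomain word, had folds of 6.08, 6.06, 5.54 and 7.04 in DFL. It was called in no PFL and no FB library. DFL minus PFL was 1.97 ± 0.11 on the log2 scale (limma, adjusted p = 4.45e-06). The region 92.0 kb away (chr13:40645809-40646663, intergenic) was alike, with DFL folds of 6.54, 6.30, 8.63 and 7.59 and a single weak call outside DFL, 2.71 in wt PFL replicate 2 (1.95 ± 0.18, limma, adjusted p = 5.01e-05). The Bolt2021 DFL library, which the fit did not use, had folds of 8.54 and 10.7 at these regions. Between them and the gene, the region 29.2 kb from the 5′ end (chr13:40708872-40709533, intergenic) was called in FB alone, with folds of 4.90, 4.50, 6.10 and 6.29, and was absent from the Bolt2021 calls (FB minus limb 1.65 ± 0.09, limma, adjusted p = 2.404e-07). It too holds an AP-2 word. DFL and FB thus had neighbouring regions with opposite listings.

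At the Tfap2a starts the tissues were close. The region 4.4 kb from the 5′ end (chr13:40733661-40734203, in the UTR) had FB folds of 5.18, 4.09, 4.30 and 4.81 and DFL folds of 3.13, 3.65, 3.81 and 2.4, with 1 PFL library uncalled and the others at 3.51, 2.96 and 3.04. FB libraries lay above all limb libraries (0.48 ± 0.19, limma, adjusted p = 0.0493). This call was lost in 10 of 12 fits that left out a library, all but those without 542 DFL replicate 1 or 542 PFL replicate 1 (adjusted p of 0.06 to 0.164). The start region 7.6 kb from the 5′ end (chr13:40730581-40731901) ranged from 3.42 to 5.34 with no contrast passing, and a weak upstream region at 10.9 kb (chr13:40749071-40749361) from 3.85 to 6.73 in the 10 libraries that called it.

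Around Tfap2b the intronic region 8.6 kb from the 5′ end (chr1:19216739-19217953) had the listing that is rarest over all regions among those seen here. Folds were 4.78, 4.68, 3.67 and 4.28 in DFL and 4.66, 6.18, 6.39 and 5.92 in FB, and no PFL library called it. DFL minus PFL was 1.46 ± 0.15 (limma, adjusted p = 8.07e-05). The 3 TAATTA words of its sequence lie on both sides of the summit. The region 36.4 kb from the 5′ end (chr1:19244922-19245670), intergenic beyond the 3′ end, was the strongest of the family's regions listed in FB alone, with folds of 9.92, 12.4, 11.7 and 11 and no call in any of the 8 limb libraries or in Bolt2021. FB minus limb was 2.71 ± 0.12 (limma, adjusted p = 9.65e-08). None of the searched words is in its 300 bases.

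Between it and the gene, the region at 32.6 kb (chr1:19240536-19241737) went the other way. Its folds were 6.26, 7.33, 6.65 and 6.05 over the DFL libraries, 4.66, 5.03, 9.07 and 6.72 over the PFL libraries, and 3.07, 4.13 and 3.4 in the FB libraries with a call. Every limb library was above every FB library (−1.36 ± 0.23, limma, adjusted p = 0.000454). Farther out, the region at 128.5 kb (chr1:19336749-19337836) was called everywhere but was stronger in DFL, at 7.67, 10.5, 10.1 and 9.31, than in PFL, at 6.25, 5.58, 3.10 and 5.19 (0.88 ± 0.22, limma, adjusted p = 0.017), a call lost without 542 DFL replicate 1, wt DFL replicate 2 or wt PFL replicate 2 (0.0532 to 0.0686). The region at 27.9 kb in the UTR of Tfap2b (chr1:19236610-19237021) had DFL folds of 4.70, 3.82, 3.53 and 4.08 against 3.4 and 3.17 in the wt PFL libraries and no call in the 542 PFL libraries (0.76 ± 0.19, limma, adjusted p = 0.0143). The size of this difference rests in part on the uncalled 542 PFL libraries, which the fit set at their lowest fold. In FB only wt replicate 1 called the region, at 2.68 (FB minus limb −1.05 ± 0.16, limma, adjusted p = 0.000242). The pair of regions 2.5 and 3.0 kb upstream of the gene were called in all 12 libraries, at 4.48 to 6.69 and 3.53 to 6.30, and passed in no contrast. Without the centring of libraries, the one 2.5 kb upstream (chr1:19206249-19206522) passed as higher in FB (0.28, limma, adjusted p = 0.0308, against 0.11 with it).

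Tfap2d had no call at the start examined, yet an intronic region 6.8 kb from its 5′ end (chr1:19109705-19110220) was among the stronger ones in limb. Folds were 9.96, 12.3, 10.1 and 6.04 over the DFL libraries, 9.01, 7.54, 8.31 and 8.79 over the PFL libraries and 4.32, 3.83, 4.80 and 5.66 over the FB libraries. All limb libraries exceeded all FB libraries (−1.11 ± 0.15, limma, adjusted p = 8.16e-05). A region 46.5 kb upstream (chr1:19056357-19056908) showed the reverse, with FB folds of 8.76, 8.79, 8.74 and 10.9 and limb folds of at most 7.08, and 3 of 8 limb libraries without a call (1.3 ± 0.49, limma, adjusted p = 0.0383). It passed without 542 DFL replicate 1, 542 PFL replicate 1 or wt PFL replicate 1 and was lost in the other 9 of 12 fits that left out a library (0.0531 to 0.099). A region 14.7 kb upstream (chr1:19088170-19088668, in an intron of Gm15825) was at 7.62, 4.20, 8.11 and 6.61 in DFL, 4.99, 4.82 and 3.96 in 3 PFL libraries and 3.5, 3.83 and 3.67 in 3 FB libraries (FB minus limb −0.89 ± 0.32, limma, adjusted p = 0.028), lost without 542 DFL replicate 1, wt DFL replicate 1, 542 FB replicate 2 or either wt FB library (0.0527 to 0.142), and without the centring of libraries (−0.72, adjusted p = 0.0675). The region 76.2 kb from the 5′ end (chr1:19178819-19179551), between Tfap2d and Tfap2b, was listed in all 12 libraries with folds of 6.15 to 12.3.

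The Tfap2c neighbourhood also holds Rtf2, Fam209 and Gcnt7. The region 64.5 kb upstream of Tfap2c (chr2:172484722-172485449, intergenic, 12594 bp from the Fam209 start) had DFL folds of 8.17, 7.72, 8.76 and 8.66. PFL libraries were at 3.38, 2.56 and 3.76 with 1 uncalled, and no FB library called it. DFL minus PFL was 1.57 ± 0.23 (limma, adjusted p = 0.000753), and Bolt2021 had 8.90. On the other side, the intergenic region 56.2 kb downstream (chr2:172605279-172606059) was the one region of the family listed in PFL alone, at 5.79, 4.98, 6.93 and 6.59, with DFL calls of 2.64 and 3.13 in 2 libraries and none in FB (DFL minus PFL −1.58 ± 0.24, limma, adjusted p = 0.00108). Bolt2021, a DFL library, had 2.57 there.

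The FB region 81.0 kb upstream of Tfap2c (chr2:172468138-172468921) has its summit in a coding exon of Rtf2, with folds of 9.04, 6.50, 7.74 and 6.35 and no limb call (2.1 ± 0.12, limma, adjusted p = 3.36e-07). A weaker region at 71.6 kb upstream (chr2:172477782-172478216) was called in all FB libraries at 5.84, 4.54, 6.49 and 4.77 and in 5 of 8 limb libraries at 3.34 to 4.77 (0.76 ± 0.21, limma, adjusted p = 0.00797). Close to the gene, 2.3 kb upstream (chr2:172547145-172547460), DFL had 4.36, 3.97, 3.64 and 3.30 and the wt PFL libraries 3.74 and 3.41, with the 542 PFL libraries uncalled (0.62 ± 0.17, limma, adjusted p = 0.0213), a call lost without 542 DFL replicate 1, 542 PFL replicate 1, wt DFL replicate 1 or wt PFL replicate 2 (0.0548 to 0.0594). DFL and wt PFL overlap at this region, so the difference rests on the uncalled 542 PFL libraries, which held 94872 and 85067 regions in all, where the other libraries held 94034 to 118297. The start regions of Tfap2c passed in no contrast, but without the centring of libraries the one at the 5′ start (chr2:172549293-172549709) passed as higher in FB (0.35, limma, adjusted p = 0.0383, against 0.17 with it).

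Around Tfap2e the strongest regions belong to other genes. The region 58.6 kb from its 5′ end (chr4:126677169-126678138) covers the start of Psmb2, a proteasome subunit, with folds of 20.6 to 26.4 in the 12 libraries. The region 17.2 kb upstream (chr4:126752994-126754251) covers the starts of Ncdn and AU040320, with folds of 13.3 to 16. It passed as lower in FB (−0.22 ± 0.06, limma, adjusted p = 0.00724) and did not without the centring of libraries (−0.05, adjusted p = 0.494), and its deposited folds overlapped between tissues, at 14.9, 13.5, 15 and 15.5 in FB and 13.3 to 16 in limb.

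Beyond Psmb2, 2 neighbouring intergenic regions had opposite patterns. The region 80.7 kb from the Tfap2e 5′ end (chr4:126655181-126655796, 22112 bp from the Psmb2 start) had folds of 9.52, 13, 6.82 and 8.12 in DFL and 11.3, 9.20, 11.3 and 8.59 in PFL. No FB library called it, and FB minus limb was −2.95 ± 0.13 (limma, adjusted p = 8.81e-08), the largest of the 34. The region 87.7 kb away (chr4:126648048-126648982) had FB folds of 6.45, 6.53, 6.46 and 6.66 and no limb call (1.93 ± 0.10, limma, adjusted p = 1.48e-07). In the sequences above, the FB region holds 3 TAATTA words and its limb neighbour none. Bolt2021 had a fold of 16.4 at the limb region and no call at the FB region. Among the others, the region 5.4 kb upstream of Tfap2e was listed in all 12 libraries, at 4.75 to 9.03.

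Bolt2021 gave a check on a library the fit did not use. It had a call at 4 of 4 regions listed in DFL alone, with folds of 10.7, 8.54, 5.34 and 8.90, and at 0 of 4 listed in FB alone. Over all merged regions it had a call at 99.7% of the 2132 listed in DFL alone and at 22.4% of the 9715 listed in FB alone, so a call at each DFL region is what nearly all such regions showed.

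**Figure D4:**
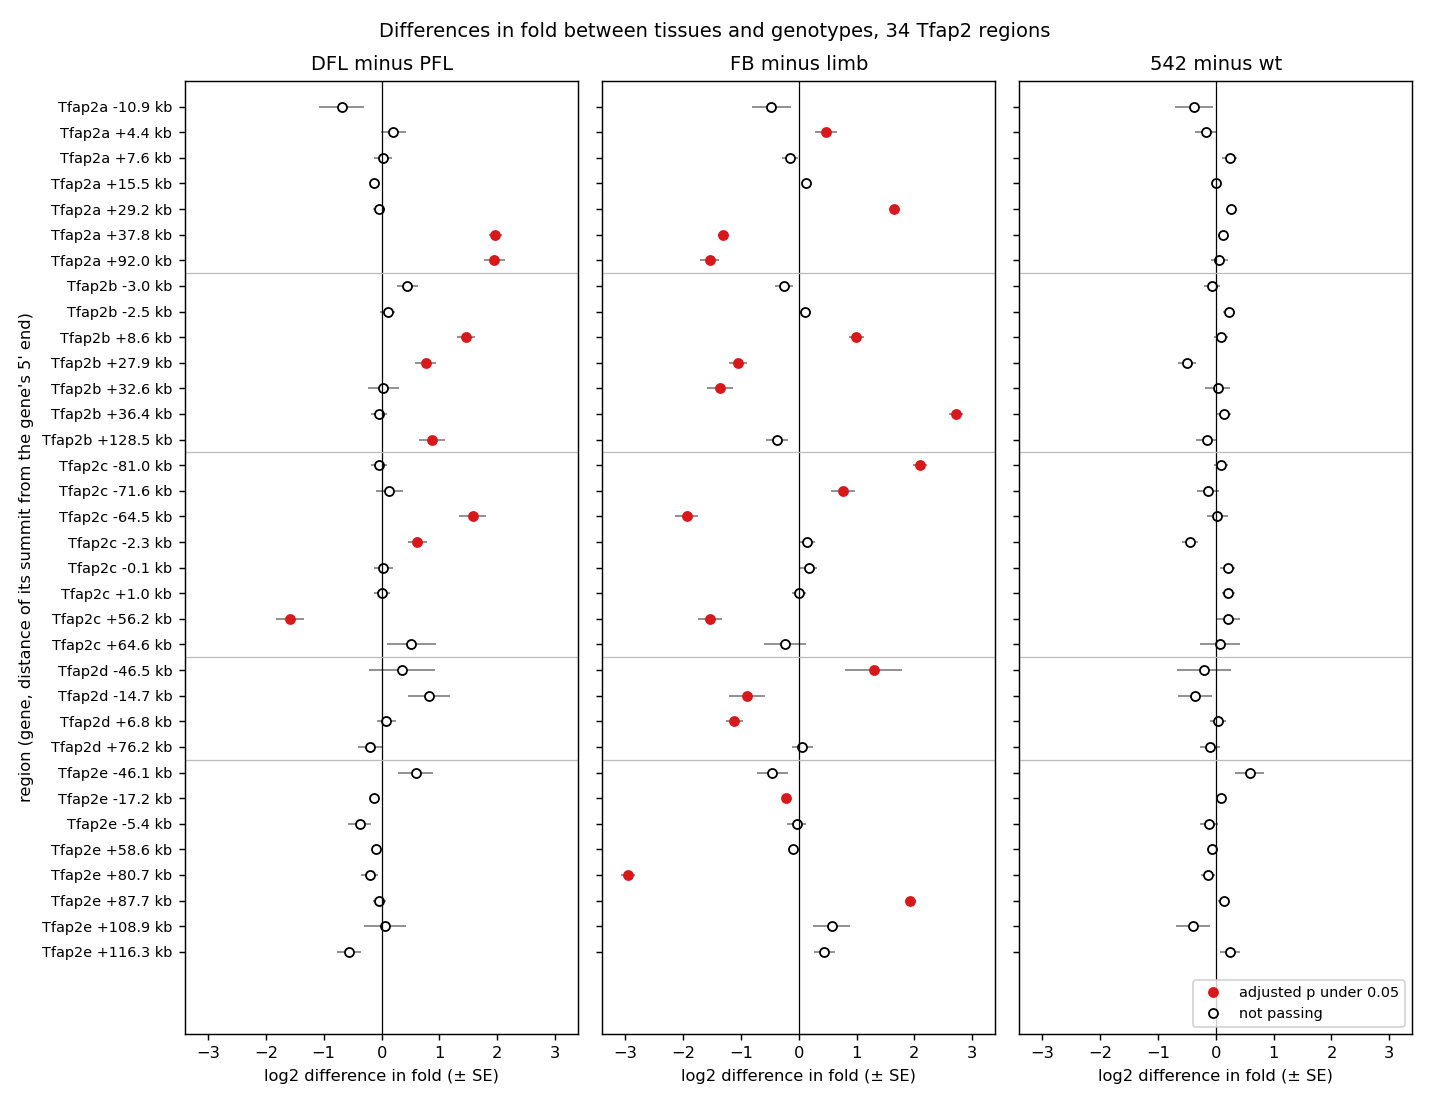
Log2 differences in fold with their SE (horizontal axis) for the 34 regions (rows, gene and distance in kb from the 5′ end) in DFL minus PFL, FB minus limb and 542 minus wt. Filled points passed an adjusted p of 0.05 (limma over 87902 regions). DFL minus PFL has 7 filled points to the right of 0 and 1 to the left, FB minus limb 8 and 10, and 542 minus wt none.

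Between genotypes no region of the family passed. Of the 34, 0 were called by limma in 542 minus wt, with 1.03% of all regions higher and 1.3% lower, and 5 had an unadjusted p under 0.05, where 17.7% of all regions did. The largest difference was 0.58 ± 0.25 in log2 fold, at the region 46.1 kb upstream of Tfap2e (chr4:126781708-126782504). In DFL the folds there were 5.27 and 4.55 in wt and 3.69 and 4.48 in 542, and the libraries without a call, which the fit set at their lowest fold, were wt PFL replicate 2 and wt FB replicate 2. Fisher's exact test on listing called 0, which was fixed in advance. Too few regions were listed in 1 genotype alone (0.0193% and 0.0159% of all) for any to pass the adjustment over 87902. After quantile normalization 1 region passed. Tfap2c is on chromosome 2, the chromosome of the insertion, and after positions beyond the insertion were shifted by its length, summits near it lay at the same place in 542 and wt (median difference −6 to 1 bp over 39 to 49 summits per pair). None of the 34 regions was listed in 542 alone or in wt alone, which holds for 0.0193% and 0.0159% of all regions.

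The words were searched on both strands in the 300 bases around each summit. GCCNNNGGC and TAATTA read the same on either strand, and no match overlapped a match of another word. The AP-2 word GCCNNNGGC was in 8 of 34 windows (23.5%), against 12.48% of all 87902 tested windows and 16.6% of 32851 RefSeq promoter windows of the same length. Of the 8, 3 lay around Tfap2a, 3 around Tfap2c, 1 around Tfap2d and 1 around Tfap2e, and none around Tfap2b. TAATTA was in 6 windows (17.6% against 13.7% of all and 5.29% of promoters), and CAATAAA, a word bound by HOX13 proteins, in 3 (8.82% against 6.81% and 4.60%). CAGATG, an E-box of the kind bound by limb bHLH factors, was in 1 (2.94% against 26.5% and 17.2%). The median GC content was 52.2% against 48% over all windows. These are descriptions of letters and were given no test.

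Other genes of AP-2 biology were read from 2 lists, by the number of regions within 100 kb. Of 9 genes for co-regulators of AP-2 proteins (Cited1, Cited2, Cited4, Kctd1, Kctd15, Wwox, Yy1, Crebbp and Ep300), 0 were higher and 2 (22.2%) lower in FB than in limb, where 22.5% and 19.9% of all genes were called, and 0 differed between DFL and PFL. Those lower were Cited1, a co-activator, with 4.50 ± 0.577 regions in DFL, 3.75 ± 0.500 in PFL and 3.0 in FB (SD, n = 4), and Wwox, which binds AP-2 in the cytoplasm, with 21 ± 2.58, 22.5 ± 2.08 and 17.25 ± 1.5. The median log2 difference of the list was −0.09 in FB minus limb, against 0.02 over all genes.

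Of 21 genes of ectoderm and neural crest that are known to work with AP-2, 4 (19%) were higher and 5 (23.8%) lower in FB, shares close to the 22.5% and 19.9% of all genes. Kit, a receptor of melanoblasts, had 1.25 ± 0.5 regions in DFL, 1.25 ± 0.5 in PFL and 3.5 ± 0.577 in FB (1.01 ± 0.15, limma, adjusted p = 0.0022), and Sox10, Foxd3 and Ednrb, of neural crest and its derivatives, also passed. Other neural crest genes of the list did not, with log2 differences of −0.13 for Pax3, −0.19 for Snai2, −0.10 for Mitf and 0.02 for Ret. Those lower were Cdh1, Ets1, Dlx5, Msx1 and Msx2. Between DFL and PFL, 3 were higher and 1 lower in DFL, 14.3% and 4.76% of the list, where 3.21% and 3.31% of all genes were called. Msx2, of the distal limb and its ectoderm, had 8.25 ± 0.957 against 4.75 ± 0.957 regions (0.69 ± 0.09, limma, adjusted p = 0.0085), Msx1 11 ± 1.41 against 6.25 ± 0.500, and Cdh1, the epithelial cadherin, 9.75 ± 0.500 against 7.5 ± 0.577. Ednrb was the one lower in DFL. The median DFL minus PFL difference of the list was 0.18, against −0.0039 over all genes. Beside these and the counts of Tfap2a and Tfap2b stand the surface ectoderm sums given above, 64 to 70 in DFL and 58 to 65 in PFL. Of the 9 surface ectoderm genes, Cdh1 was the 1 called between DFL and PFL. The log2 differences of the others ran in both directions, from −0.35 for Epcam to 0.47 for Grhl2. The part of surface ectoderm in the result was not tested.

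The genes whose region counts ran most like those of each member over the 12 libraries were Cldn10 for Tfap2a (Pearson's r = 0.929), Pcdh15 for Tfap2b (0.936), Rnf130 for Tfap2c (0.94), Strn for Tfap2d (0.915) and Olfr522 for Tfap2e (0.901), each the first of 14453 genes. Pcdh15 was also the third for Tfap2d (0.884), whose window overlaps that of Tfap2b, and Dlx2, a forebrain and face gene, the third for Tfap2c (0.903). The counts are small whole numbers from the same libraries, and the correlations are descriptions.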

How the data were processed

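ATAC-seq libraries of 50000 cells were made from DFL, PFL and FB of wt and 542 embryos. The authors trimmed adapters (Cutadapt), mapped with bowtie to mm10 (wt) or to a mutant genome (542), filtered by mapping quality and duplicates (Picard), and called peaks per library without a control (MACS2 on bedtools intervals). The deposited fold is a ratio of tags to local background within a library. Each summit also has a −log10 p-value and a −log10 q-value, deposited as MACS2 gave them, and a score that the authors' caller derived from the q-value and that was not used. No file is normalized between libraries.

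Summits with the same interval were taken as 1 region, and positions of 542 beyond the insertion on chromosome 2 were lowered by the length inserted. Tags under summits were recovered from fold and p-value for 94.6% to 98.8% of summits, which gave the estimated depth. Strength was ranked by q within a library, and rank 50000 lay at a −log10 q of 7.27 to 17.2. Regions overlapping by at least 1 bp were merged. limma 3.58.1 in R 4.3.3 was fitted with trend over the 6 groups and all genes with a mean count of at least 1 (19546) or all merged regions (87902), on log2(count + 1) or on log2 fold centred on regions called in all 12 libraries, with Benjamini-Hochberg adjustment and a threshold of 0.05. In simulated data 62.5% of genes changed 1.5-fold (19477 genes) and 97% of those changed 2-fold (19479 genes) were recovered for the counts (FB minus limb), and 0.5% and 76% of regions for the fold (DFL minus PFL, 19307 regions). False calls were 8.09% and 8.49% of calls for the counts and 0% and 6.75% for the fold. Changes were placed only in genes with higher counts than Tfap2a and Tfap2c, and DFL minus PFL counts were not simulated. The regions simulated were listed in all 12 libraries, as were only 5 of the 34. The shares recovered are therefore not a guide to most results here. Regions were annotated with GENCODE M21, and promoter windows came from RefSeq. Replicates were pools from different litters. Regions were named if at a start, among the 3 strongest of a gene, listed in 1 tissue or called by the test. The result of 1 gene of the co-regulator list is not reported here. Members, lists and words were chosen with earlier results of these data known.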

Additional observations from a re-analysis of the deposited data

Results flagged for a closer look

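In 68 groups of 4 libraries (1 tissue, both genotypes), a gap test on the highest and the lowest library flagged 5, where chance flags about 1 in 20 groups. The count around Tfap2b was 9 in wt DFL replicate 1 and 8 in each other DFL library, and the count around Tfap2e was 4 in wt PFL replicate 2 and 5 in each other PFL library. Both are steps of 1 region. The fold at the region 76.2 kb from the 5′ end of Tfap2d was 9.20 in wt PFL replicate 2, against 7.56 to 7.79 in the other PFL libraries. The fold at the Tfap2a start region 7.6 kb from the 5′ end was 5.34 in 542 FB replicate 1, against 3.74 to 3.99 in the other FB libraries. The fold at the region 46.5 kb upstream of Tfap2d was 10.9 in 542 FB replicate 2, against 8.74 to 8.79 in the other FB libraries. None of these values turned the direction of a contrast described for its region.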

How the results depend on the processing

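For counts around the 5 genes in DFL minus PFL (3 called), all deposited regions gave 0, windows of 50 kb 1, the 20000 strongest regions 1 of 3 tested genes, and leaving out single libraries 1 to 3, the lowest without 542 DFL replicate 1. For FB minus limb (1 called), a −log10 q of at least 10 gave 3, the replicate block 0, the exact permutation test 0, and leaving out single libraries 0 to 1, so the Tfap2c call depended on single libraries. For 542 minus wt (0 called), all deposited regions gave 1 and the 20000 strongest 1, and for the genotype by tissue interaction (0 called) the 20000 strongest gave 1. The 1 gene that the 20000 strongest regions called in FB minus limb was Tfap2a, as lower (−0.15, adjusted p = 3.38e-10). Tfap2a was also the 1 gene they called in DFL minus PFL, in 542 minus wt and in the interaction. Its count among them was 2 in both 542 DFL libraries and 1 in every other library tested. With no variation within groups, the adjusted p-values of these calls measure no spread between replicates, and the calls are not read as results. Tfap2a passed with the opposite sign to the value reported in 3 cases, at 0.70 in FB minus limb at a −log10 q of at least 10 (adjusted p = 0.0162), at −0.44 in 542 minus wt with all deposited regions (adjusted p = 0.0418), and at −0.29 in the interaction with the 20000 strongest (adjusted p = 1.30e-09, from counts of 1 and 2 that did not vary within groups). Without passing, it also turned to 0.17 in FB minus limb with all deposited regions, to 0.11 there with windows of 50 kb, and to −0.25 in 542 minus wt at a −log10 q of at least 10. The cause was not tested. FB libraries had an estimated 51.4 M to 70.7 M tags and limb libraries 37.5 M to 54.5 M, and 542 limb libraries held fewer regions than wt libraries of the same limb part.

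For region folds, DFL minus PFL (8 of 34 called) gave 21 of 83 with all deposited regions, 2 of 10 with the 20000 strongest, 1 of 13 with regions called in all 12 libraries only, and 0 with Fisher's exact test on listing. FB minus limb (18 of 34) gave 47, 7, 3 and 6 under the same alternatives, and quantile normalization called 1 region in 542 minus wt. The 0 of Fisher's exact test in DFL minus PFL was fixed in advance and says nothing about the limma calls. Even regions listed in every DFL library and in no PFL library had an adjusted p of 0.497 in Fisher's test. The 20000 strongest and the regions called in all 12 libraries are shorter tables. The share of all regions called under each alternative is not given here, so these counts are not read as a result about the family. Leaving out single libraries gave 6 to 9, 16 to 21 and 0 to 0 calls in the 3 contrasts.

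Replicate numbers did not pair the libraries: deviations of same-numbered libraries correlated at −0.02 to 0.01 over 15 pairs. With the replicate block the counts of calls stayed within 1.5 times, except the 0 above. Depth limits weak sites, since a region just under the caller's threshold in a shallow library is not listed.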

Other observations

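Bolt2021, the older wt DFL library with an estimated 78.0 M tags and 131691 regions, held 6 regions around Tfap2a, 7 around Tfap2b, 4 around Tfap2c, 7 around Tfap2d and 8 around Tfap2e among its 50000 strongest. Around Tfap2e this is above the 4 to 6 of the other DFL libraries, and around Tfap2b below their 8 and 9. Among the regions of mixed listing, it had the highest fold of any library at the region 32.6 kb from the 5′ end of Tfap2b, 12.7 against 6.05 to 7.33 in the other DFL libraries, and no call at the region 46.5 kb upstream of Tfap2d.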
